A study of Mus musculus with 2 samples.

Results

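Apln, Pgf, Angpt2, Adm and Esm1 are 5 secreted angiogenic factors that are often used to mark the tip cells of growing vessel sprouts, and they were followed here in ECs from E0771 mammary tumors (TECs) and from normal mammary glands (NECs). They make up 5 of the 14976 genes listed in the tables of both libraries. The genes were chosen by their levels in earlier results of these same libraries, so the difference between TECs and NECs is given as a description and carries no test. Single cells were sorted as CD45-/CD31+ from dissociated tissue, and each condition was 1 library. TECs came from tumors of E0771, a mouse mammary cancer line that the study injected orthotopically, and neither an age nor a strain is given on their label. NECs came from pooled glands of C57BL/6 mice aged 6 to 8 weeks, although other fields of the same label repeat the words used for tumor cells. The labels name no altered gene and no agent in either group.

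Tip cells lead a vessel sprout toward a source of VEGF and sit ahead of the dividing stalk cells. Apelin (Apln) is a peptide ligand of the receptor Aplnr, placental growth factor (Pgf) is a VEGF family ligand that binds Flt1 and Nrp1, and angiopoietin-2 (Angpt2) binds the receptor Tek (Tie2) and can block its activation by Angpt1. Adrenomedullin (Adm) is a peptide that signals through Calcrl together with Ramp2 or Ramp3. Endocan (Esm1) is a proteoglycan that ECs secrete and that is induced by VEGF. Adm is also a well known target of the hypoxia response in many cell types.

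On GRCm38 the members are protein-coding genes at chrX:48025146-48034853 (Apln, minus strand), chr12:85166635-85177790 (Pgf, minus strand), chr8:18690263-18741562 (Angpt2, minus strand), chr7:110627661-110629820 (Adm, plus strand) and chr13:113209659-113218098 (Esm1, plus strand). RefSeq start windows matched 4 of the 5 members, all but Angpt2, with 5 windows in all because Pgf had 2 start sites. The 250 bases before the start were read 5′ to 3′ on the strand of the gene and searched on both strands for ACGTG and GCGTG, which are cores of the hypoxia response element, and for TGAGTCA (AP-1), GTAAACA (forkhead) and CCGGAAG (ETS). The 3 windows with a match are shown, and GCGTG or its reverse complement is in capitals.
Adm, GRCm38.p6, chr7:110627407-110627656, plus strand: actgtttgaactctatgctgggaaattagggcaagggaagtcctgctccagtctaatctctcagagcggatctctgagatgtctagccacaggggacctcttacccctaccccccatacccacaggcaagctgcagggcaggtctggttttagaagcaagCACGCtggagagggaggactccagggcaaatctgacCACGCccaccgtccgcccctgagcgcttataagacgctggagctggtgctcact
Pgf, GRCm38.p6, chr12:85177314-85177563, minus strand: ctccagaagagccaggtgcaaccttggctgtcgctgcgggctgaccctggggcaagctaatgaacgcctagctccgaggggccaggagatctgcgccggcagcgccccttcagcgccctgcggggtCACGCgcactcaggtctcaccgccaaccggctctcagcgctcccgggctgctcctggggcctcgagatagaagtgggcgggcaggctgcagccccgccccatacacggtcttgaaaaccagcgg
Esm1, GRCm38.p6, chr13:113209409-113209658, plus strand: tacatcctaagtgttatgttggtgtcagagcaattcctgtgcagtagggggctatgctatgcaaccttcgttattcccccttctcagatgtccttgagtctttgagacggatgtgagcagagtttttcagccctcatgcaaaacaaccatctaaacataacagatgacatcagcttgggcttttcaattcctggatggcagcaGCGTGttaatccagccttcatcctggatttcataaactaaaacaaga
Adm held 2 matches, from -90 to -86 and from -54 to -50 relative to the start, Pgf held 1 from -124 to -120 and Esm1 held 1 from -47 to -43. These letters occurred in 28.2% of all 32851 windows of this length, so a match is common. Whether a match bears on the level of a gene was not tested. The window of Apln and the other window of Pgf held none of the 5 motifs, and no member window held a motif other than GCGTG. Of all windows, 16.6% held ACGTG, 4.46% held the AP-1 motif, 3.17% held the forkhead motif and 6.91% held the ETS motif.

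The rule kept 261 of 704 barcodes as TECs and 4940 of 9047 as NECs. Kept TECs were deeper, with a median of 16989 UMIs per cell against 2976.5, and the 2 libraries shared 3 barcodes, none of them among kept cells. The tumor library also held 206 cells in which the cancer-like genes Rhox5, Hmga2 and Krt8 outnumbered Cdh5 plus Pecam1, and 51 cells were left out of the TECs by that condition alone. The NEC library also held RNA of the salivary genes Bpifa2, Smr3a and Dcpp1, which made up 5.29% of the UMIs of all its barcodes and 0.205% of those of the kept NECs, in 4709 of which at least 1 such UMI was found. Levels are summed UMIs scaled to a total of 1000000 UMIs of the same cells (CPM). The 10 endothelial markers were present at 8328 CPM in TECs and 8883 CPM in NECs, none differed 4-fold, so both groups carried endothelial markers. The cell rule itself asked for Cdh5 or Pecam1, which are on that list. Of the 6 epithelial markers, 5 were at 0 or not listed in TECs, and their summed level was 0.646 CPM in TECs and 77.7 CPM in NECs. The pericyte list stood at 43.5 CPM in TECs and 142 CPM in NECs, the smooth muscle list at 9.26 and 118 CPM, the fibroblast list at 7.32 and 62.6 CPM and the immune list at 2.58 and 6.12 CPM, so each of these sums was lower in TECs. The cell rule set part of these sums in advance. It removed cells with Epcam, Myh11, Cspg4 or Ptprc from both groups. The epithelial gene Krt8 (3 UMIs in TECs and 638 in NECs) counted against cells of the tumor library only. Within the pericyte list, whose NEC sum was mostly Rgs5 (107 CPM, against 2.80 CPM in TECs), Kcnj8 (22.8 against 7.04 CPM) and Abcc9 (16.1 against 10.1 CPM) were higher in TECs, and their part in the results was not tested.

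Apln, Pgf, Angpt2 and Adm were far higher in TECs than in NECs, whereas Esm1 was nearly level. Intervals are 95% and cover counting error only. Apln stood at 533 CPM in TECs (512 to 554) and 13.0 CPM in NECs (11.4 to 14.9), a 40.9-fold difference. Pgf, at 368 CPM (350 to 385) against 5.71 CPM (4.64 to 6.96), differed 64.3-fold. These are the ligands of Aplnr and of Flt1 and Nrp1, respectively, and both were scarce in the normal gland. Angpt2 stood at 523 CPM (502 to 544) against 18.5 CPM (16.5 to 20.6), or 28.3-fold higher. Adm stood at 257 CPM (243 to 272) against 11.1 CPM (9.57 to 12.8), or 23.2-fold higher. The size of these ratios depended on the cells used. The log2 ratio was 6.01 for Pgf, 5.35 for Apln and 4.82 for Angpt2, and it was 5.10, 4.44 and 3.91 with no cancer-like condition, while as a mean over cells it was 6.64 for Pgf and 5.77 for Apln. Esm1 did not follow the others, as it stood at 320 CPM (304 to 337) in TECs and 293 CPM (285 to 302) in NECs, a ratio of 1.09 (1.03 to 1.16).

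**Figure D1:**
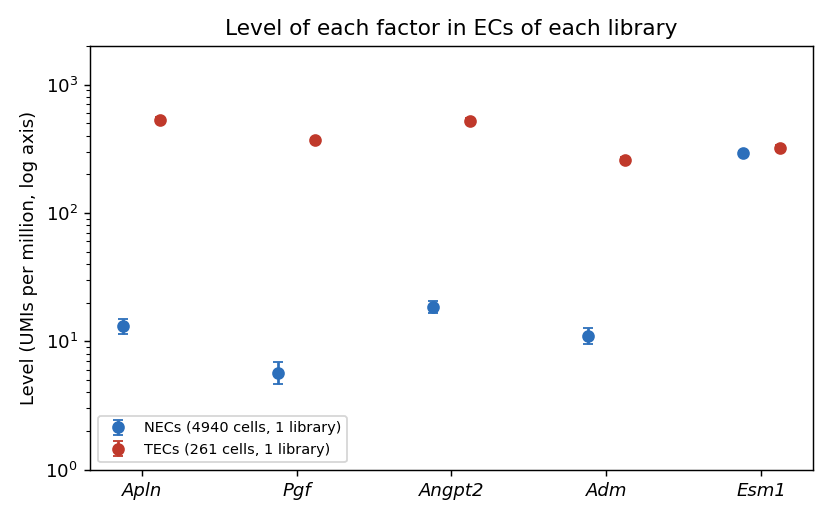
Level of each factor in CPM (log axis) in TECs (red, 261 cells) and NECs (blue, 4940 cells), with exact Poisson 95% intervals that cover counting error in 1 library each. Apln, Pgf, Angpt2 and Adm lie between 257 and 533 in TECs and between 5.71 and 18.5 in NECs, while the points for Esm1 nearly coincide at 320 and 293.

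Past a 4-fold difference, 4 of the 5 members were higher in TECs, against 3.79% of all 12230 genes compared, and no member was 4-fold lower, against 10.7% of all genes. Because the members were chosen by this contrast, the counts are a description only. By size of the ratio Pgf ranked 24 of 12230 genes, Apln 35, Angpt2 51 and Adm 61, while Esm1 ranked 4436. The direction for Esm1 was not stable, since its log2 ratio of 0.13 turned to -0.12 with mitochondrial UMIs held under 5% and to -0.024 without cells carrying 2 or more lymphatic markers. Summed over the 5 genes, the level was 2001 CPM in TECs and 342 CPM in NECs (5.86-fold, 5.67 to 6.05). Without Esm1 the sum was 1681 against 48.3 CPM, or 34.8-fold (32.4 to 37.4). Esm1 alone supplied 85.9% of the UMIs of the 5 genes in NECs and 16% in TECs, so any summed value in NECs is largely a value of Esm1.

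Shares of cells were compared after thinning each cell to 1900 UMIs, which left 239 TECs and 3831 NECs. At this depth Apln was detected in 37.2% of TECs (31.1 to 43.7) and in 1.36% of NECs (1.02 to 1.78). Angpt2 was detected in 43.1% of TECs (36.7 to 49.6) and in 3.16% of NECs (2.63 to 3.76). At 1900 UMIs both were thus found in a large minority of TECs rather than in a small set of cells. With all UMIs counted both were found in most TECs, as given below. Pgf was detected in 20.9% of TECs (15.9 to 26.6) and in 0.574% of NECs (0.360 to 0.868). Adm was detected in 16.3% of TECs (11.9 to 21.6) and in 1.80% of NECs (1.40 to 2.27). Esm1 was detected in 25.9% of TECs (20.5 to 32.0) and in 19.2% of NECs (17.9 to 20.4), and the intervals lie close without overlapping. With all UMIs counted, the shares in TECs were 65.1% for Apln, 33.7% for Pgf, 74.3% for Angpt2, 39.8% for Adm and 45.2% for Esm1. In NECs the unthinned shares were 2.06%, 0.891%, 5.08%, 3.04% and 20.4% in the same order.

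The UMIs of the members were unevenly spread over TECs. The 10% of TECs with the most UMIs of a gene held 82.7% of all Pgf UMIs, 76.2% of Adm and 72.4% of Esm1, but 52.8% of Apln and 49.8% of Angpt2. Among TECs with at least 1 UMI, the median was 8 UMIs of Apln, 7 of Angpt2, 6.5 of Pgf, 5 of Esm1 and 4 of Adm, and the highest single cells held 92, 112, 165, 148 and 172. In NECs with a UMI the median was 1 for Apln, Pgf, Angpt2 and Adm and 3 for Esm1, whose highest cell held 51 UMIs. Esm1 was therefore strongly expressed in a minority of normal ECs, whereas the other members were mostly seen there as single UMIs.

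The other cells of the 2 libraries give the background for these shares. In the cancer-like cells of the tumor library (192 at this depth, median 56629 UMIs before thinning) Apln was detected in 0.521%, Pgf and Angpt2 in 1.04% each, and Esm1 in 0 of 192, which allows a share of up to 1.56%. TECs were far above these shares for the 4 genes. For Adm the cancer-like cells reached 16.1% (11.2 to 22.1), which is close to the 16.3% of TECs, and their summed level was 150 CPM against 257 CPM in TECs. The detection of Adm in TECs thus did not exceed that in cancer-like cells of the same library, and the part of free RNA in it was not tested. In the NEC library, cells with Myh11 or Cspg4 UMIs and no Cdh5 or Pecam1 UMI (255 at this depth, median 6247 UMIs before thinning) had Pgf in 9.02% (5.80 to 13.2) and Angpt2 in 8.24% (5.17 to 12.3). In Epcam cells of the NEC library (681 at this depth, median 10806 UMIs before thinning) Pgf was detected in 1.91% (1.02 to 3.24) and Angpt2 in 0.441% (0.0909 to 1.28). The Pgf share of NECs thus lay below that of both cell sets, and the Angpt2 share lay between them, and the part of RNA from other cells in the NEC shares was not tested. Adm, at 0.784% (0.0951 to 2.80) and 0.734% (0.239 to 1.71) in the 2 sets, gave intervals that overlapped the interval of NECs (1.40 to 2.27). Apln was detected in 0 of 255 and 0 of 681 of these cells, and 3 counts, the limit used for a count of 0, would be 1.18% and 0.441%. The first of these lies within the interval of NECs (1.02 to 1.78). Esm1, at 0.784% and 0.587% in them, was far below its 19.2% of NECs.

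**Figure D2:**
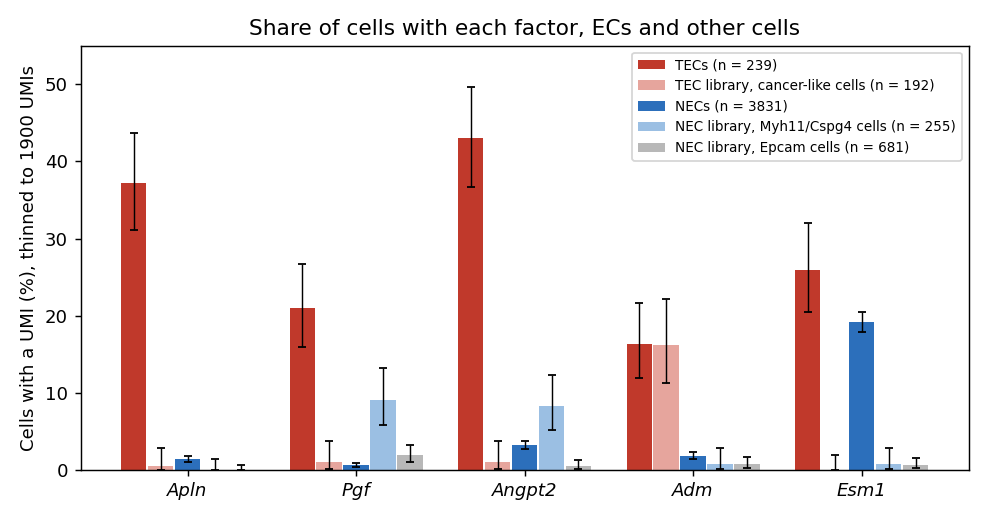
Percent of cells with a UMI of each factor after thinning every cell to 1900 UMIs, with Clopper-Pearson 95% intervals, for TECs, cancer-like cells of the tumor library, NECs, and Myh11 or Cspg4 cells and Epcam cells of the NEC library. The bars of Adm stand at 16.3% in TECs and 16.1% in cancer-like cells, and Esm1 is the one factor with a tall bar in NECs (19.2%).

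The members tended to be found in the same TECs. After thinning, 71 of 239 TECs had none of the 5 genes, 73 had 1, 46 had 2, 26 had 3, 15 had 4 and 8 had all 5, so that 39.7% (33.5 to 46.3) had 2 or more. Among 3831 NECs, 2885 had none, 898 had 1, 45 had 2, 2 had 3, 1 had 4 and 0 had 5, and 1.25% (0.925 to 1.66) had 2 or more. With all UMIs counted the shares with 2 or more were 75.1% of TECs and 2.87% of NECs, and without Esm1 the thinned shares were 32.2% and 0.392%.

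**Figure D3:**
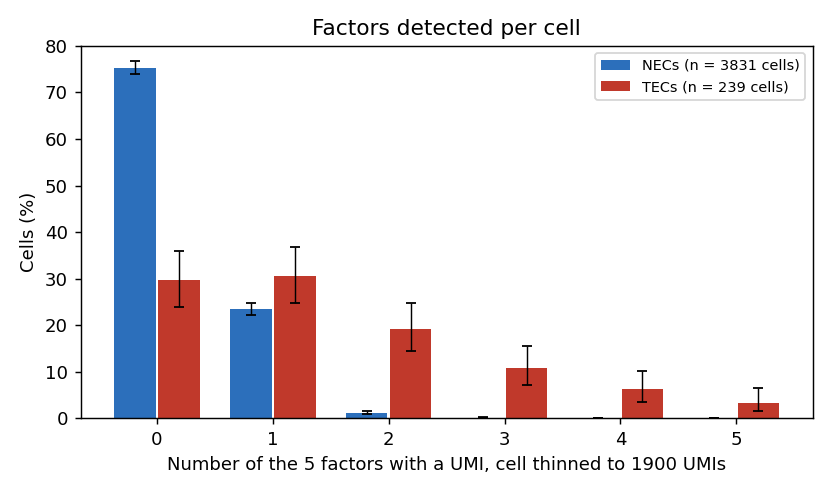
Percent of cells by how many of the 5 factors had a UMI after thinning to 1900 UMIs, for 3831 NECs (blue) and 239 TECs (red), with Clopper-Pearson 95% intervals. TECs spread from 29.7% with no factor to 3.35% with all 5, whereas 75.3% of NECs had none and 23.4% had 1.

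Within TECs each member had a higher share in cells with any other member than in cells without it, though for every pair with Esm1 the 2 intervals overlapped. Angpt2 was found in 82.1% (66.5 to 92.5) of the 39 TECs with Adm and in 35.5% (28.9 to 42.6) of the 200 without. Apln was found in 69.2% (52.4 to 83.0) of the TECs with Adm and in 31.0% (24.7 to 37.9) of those without. Pgf was found in 51.3% (34.8 to 67.6) and 15% (10.4 to 20.7) of the same cells. The Adm cells were thus the ones that most often carried the other ligands as well. Apln was found in 62.0% (47.2 to 75.3) of the 50 TECs with Pgf against 30.7% (24.2 to 37.8) of the others, and Angpt2 in 57.3% (46.4 to 67.7) of the 89 TECs with Apln against 34.7% (27.1 to 42.9). By these shares Esm1 was the least tied to the others. It was found in 33.7% (24 to 44.5) of TECs with Apln and 21.3% (15.1 to 28.8) of those without, with intervals that overlap, and in 35.0% (25.8 to 45.0) of TECs with Angpt2 and 19.1% (12.9 to 26.7) of those without. Over these cells, which share a library and its depth, Pearson's r was taken of ln(1 + UMIs per 10000). It was 0.61 for Pgf with Adm, 0.53 for Apln with Adm and 0.53 for Apln with Angpt2. Angpt2 with Esm1 reached 0.45, above Angpt2 with Adm (0.43), Apln with Pgf (0.39) and Pgf with Angpt2 (0.34). The other pairs with Esm1 were lower, at 0.24 for Adm, 0.20 for Apln and 0.13 for Pgf.

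In NECs the pairs were rare. The shares of Apln and Esm1 were lower in cells with the other gene, but this rests on 4 cells with both and the intervals overlap. Apln was found in 0.545% (0.149 to 1.39) of the 734 NECs with Esm1 and in 1.55% (1.14 to 2.05) of the 3097 without. Esm1 was found in 4 of the 52 NECs with Apln (7.69%, 2.14 to 18.5) and in 19.3% (18.1 to 20.6) of the others. Angpt2 was found in 8 of the 52 NECs with Apln (15.4%, 6.88 to 28.1) against 2.99% (2.47 to 3.58) of the others. Pgf was found in 4 of those 52 cells and in 0.476% (0.283 to 0.752) of the others.

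Cells were next placed by arterial, venous and capillary markers, 8 genes each, taking the class with the most markers detected. This gave 435 arterial, 421 venous and 3750 capillary NECs, and 13 arterial, 58 venous and 125 capillary TECs, and the rest were lymphatic (9 NECs) or unassigned. The classes are not firm. In TECs 65 of the 125 capillary and 29 of the 58 venous cells were 1 marker ahead of the next class, and the capillary markers Timp4, Car8 and Aqp7 had 1, 2 and 1 UMIs in all TECs. Setting classes by summed marker UMIs, each marker divided by its mean, gave 942 arterial, 685 venous and 2605 capillary NECs and 37, 82 and 96 TECs, and each level below is given with that alternative where it changed.

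By the number of markers, Esm1 in NECs was mostly in capillary cells. It stood at 376 CPM (366 to 387) in capillary, 51.0 CPM (40.3 to 63.7) in arterial and 18.0 CPM (12.8 to 24.5) in venous NECs, and capillary cells held 91.6% of its NEC UMIs. By summed marker UMIs it stood at 287 CPM (275 to 299), 275 CPM (258 to 293) and 138 CPM (126 to 151), and capillary cells held 45.4%. The gap between arterial and capillary NECs was therefore set by the class rule, whereas venous NECs were lowest under both. In TECs Esm1 stood at 416 CPM (387 to 446) in capillary, 482 CPM (397 to 582) in arterial and 163 CPM (143 to 186) in venous cells, and at 401, 382 and 193 CPM by summed marker UMIs. Venous cells were again lowest under both rules.

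The ratio of Esm1 between the libraries within a class also followed the class rule. By the number of markers TECs over NECs was 1.10-fold (1.02 to 1.19) in capillary, 9.09-fold (6.47 to 13.1) in venous and 9.46-fold (7.01 to 12.8) in arterial cells, and by summed marker UMIs it was 1.40-fold (1.28 to 1.53), 1.39-fold (1.21 to 1.61) and 1.39-fold (1.21 to 1.59). For the other members TECs stood above NECs in every class under both rules, with 1 interval that reaches 1 by the number of markers. The ratios that follow are by the number of markers unless stated. For Angpt2 the ratio was 27.5-fold in capillary, 25.4-fold in venous and 47.9-fold in arterial cells, and for Apln it was 43.1-fold, 32.9-fold and 15.9-fold. Adm differed 25.2-fold, 23.1-fold and 13.4-fold in the same order. Pgf differed 74.0-fold in capillary cells and 2.76-fold (0.968 to 7.01) in arterial cells. In venous NECs Pgf had 0 UMIs, for which 3 counts would be 1.35 CPM, against 216 CPM (192 to 242) in venous TECs.

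Among TECs, Apln, Pgf and Adm were lowest in the 13 arterial cells, and for Pgf this turned with the class rule. By the number of markers, their UMIs in arterial TECs came from 3, 1 and 2 cells. The intervals cover counting error only and not the spread between cells. Apln stood at 114 CPM (74.5 to 167) in arterial, 517 CPM (479 to 556) in venous and 617 CPM (582 to 654) in capillary TECs. Pgf stood at 30.7 CPM (12.3 to 63.3), 216 CPM (192 to 242) and 472 CPM (442 to 504), but at 472 CPM (424 to 525), 224 CPM (203 to 248) and 256 CPM (232 to 282) by summed marker UMIs. Adm stood at 35.1 CPM (15.2 to 69.1), 145 CPM (126 to 167) and 337 CPM (311 to 364), and at 240 CPM (218 to 264) in venous TECs by summed marker UMIs. By summed marker UMIs arterial TECs stayed lowest for Apln (236 CPM, 201 to 274) and Adm (76.2 CPM, 57.4 to 99.2). Apln then stood at 579 CPM (544 to 616) in venous and 626 CPM (588 to 667) in capillary TECs. Angpt2 varied least, at 439 CPM (357 to 534), 399 CPM (366 to 433) and 552 CPM (519 to 586) by the number of markers. By summed marker UMIs it stood at 495 CPM (445 to 549), 530 CPM (496 to 566) and 517 CPM (482 to 554). Venous TECs were thus lowest for Angpt2 only by the number of markers. Among NECs the sum of the 4 genes without Esm1 stood at 30.1 CPM (22.0 to 40.1) in arterial, 37.7 CPM (30.1 to 46.7) in venous and 54.1 CPM (50.1 to 58.3) in capillary cells, so the intervals of arterial and venous cells overlapped under this class rule. With Esm1 included, arterial NECs stood 2.41 lower than capillary NECs on the log2 scale, a log2 ratio of -2.41 (-2.68 to -2.15), against -0.23 (-0.33 to -0.12) by summed marker UMIs.

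**Figure D4:**
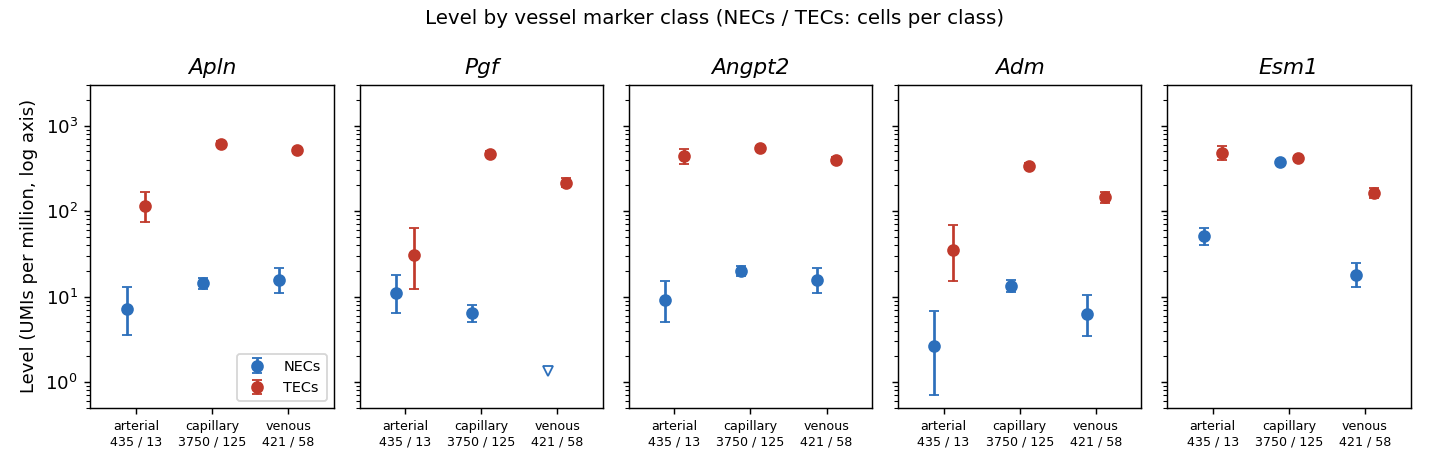
Level of each factor in CPM (log axis) by arterial, capillary and venous marker class in NECs (blue) and TECs (red), with exact Poisson 95% intervals and the number of NECs and TECs under each class. Classes are by the number of markers, under which Esm1 in NECs is 376 in capillary and 51.0 in arterial cells (287 and 275 by summed marker UMIs), and the open triangle marks the limit of 3 counts for Pgf in venous NECs, where it had 0 UMIs.

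The NECs that carried Esm1 differed from the others in further genes. Of the NECs of 1900 or more UMIs, 734 had Esm1 after thinning and 3097 did not. The VEGF receptor Kdr stood at 2022 CPM with Esm1 and 904 CPM without, a ratio of 2.24 (2.17 to 2.31). Flt1 (3105 against 1681 CPM, 1.85-fold, 1.80 to 1.89) and Nrp1 (1868 against 948 CPM, 1.97-fold, 1.91 to 2.03), which also bind VEGF ligands, were higher with Esm1 as well. In the other direction, the fatty acid transporter Cd36 stood at 1018 against 2103 CPM (0.48-fold, 0.47 to 0.50) and Gpihbp1, which anchors lipoprotein lipase, at 721 against 1271 CPM (0.57-fold, 0.54 to 0.59). The apelin receptor Aplnr stood at 64.6 against 199 CPM (0.32-fold, 0.28 to 0.37). Within NECs of the capillary class the directions were the same, with Kdr at 1.76-fold (1.71 to 1.82), Flt1 at 1.59-fold, Nrp1 at 1.61-fold, Cd36 at 0.40-fold, Gpihbp1 at 0.43-fold and Aplnr at 0.28-fold, though Cd36 and Gpihbp1 are also markers of that class. The genes most like Esm1 over the 3831 NECs were Itm2a (r = 0.56), Col13a1 (0.55) and Plpp3 (0.53). In TECs their r with Esm1 was 0.10, 0.16 and 0.04, and Itm2a stood at 2.58 CPM in TECs against 274 CPM in NECs.

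Among all TECs, Kdr stood at 548 CPM in the 62 TECs with Esm1 and 373 CPM in the 177 without (1.47-fold, 1.34 to 1.62), Nrp1 at 272 against 180 CPM (1.51-fold, 1.32 to 1.73), and Aplnr at 60.1 against 182 CPM (0.33-fold, 0.25 to 0.42). Cd36 stood at 311 against 219 CPM (1.42-fold, 1.25 to 1.61) and Gpihbp1 at 2126 against 1764 CPM (1.21-fold, 1.15 to 1.26). Within capillary TECs (36 with Esm1 and 75 without) most of these differences were not seen, with Kdr at 1.06-fold (0.91 to 1.23), Flt1 at 0.99-fold (0.88 to 1.10), Cd36 at 0.95-fold (0.79 to 1.14) and Gpihbp1 at 1.02-fold (0.95 to 1.09), while Nrp1 at 1.30-fold (1.07 to 1.59) and Aplnr at 0.38-fold (0.28 to 0.52) kept their direction. The tip gene Kcne3, a potassium channel subunit, stood at 213 against 93.7 CPM (2.28-fold, 1.92 to 2.69). Gja4, a gap junction gene of arterial ECs, stood at 139 against 31.1 CPM (4.46-fold, 3.47 to 5.74). Cells with Apln differed here. In the 89 TECs with Apln, Gja4 stood at 1.61 CPM, against 97.2 CPM in the 150 without (0.02-fold, 0.003 to 0.05). Split by both genes, Gja4 was found in 11 of the 32 TECs with Esm1 and no Apln (312 CPM, 266 to 364), in 1 of the 30 with both (1.52 CPM), in 2 of the 59 with Apln alone (1.67 CPM) and in 18 of the 118 with neither (47.0 CPM). The 50 TECs with Pgf had 0 Gja4 UMIs and the 39 with Adm stood at 2.46 CPM, against 73.5 and 70.7 CPM in TECs without each gene. With Angpt2, Gja4 stood at 35.1 CPM, against 78.1 CPM in TECs without it (0.45-fold, 0.34 to 0.59). Esm1 was thus the 1 member with more Gja4 in the cells that carried it, and this came from few cells.

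The receptors of these factors were not higher in TECs. Of 10 receptor genes (Aplnr, Kdr, Flt1, Nrp1, Nrp2, Tek, Tie1, Calcrl, Ramp2 and Ramp3) none was 4-fold higher in TECs and 1 was 4-fold lower. Over all genes compared, 3.79% were 4-fold higher and 10.7% were 4-fold lower, so 1 of 10 lower is near that share. The median log2 ratio of the receptors was -1.34, against -0.20 over all genes compared. Nrp1 was the 1 past the fold, at 203 CPM in TECs and 1148 CPM in NECs. The Pgf receptor Flt1 stood at 718 against 1985 CPM and Kdr at 417 against 1144 CPM. The Angpt2 receptor Tek stood at 55.5 against 186 CPM. Calcrl, the core of the adrenomedullin receptor, stood at 68.9 against 162 CPM, while its partner Ramp2 (797 against 940 CPM) and Aplnr (153 against 177 CPM) were close between the libraries.

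Within TECs, Aplnr was lower in cells with a member. It stood at 9.85 CPM in TECs with Adm and 181 CPM in those without (0.05-fold, 0.02 to 0.11), at 15 against 186 CPM by Pgf (0.08-fold, 0.04 to 0.14) and at 101 against 185 CPM by its own ligand Apln (0.55-fold, 0.46 to 0.65). In TECs with Pgf its receptor Flt1 stood at 316 CPM, against 818 CPM in those without (0.39-fold, 0.34 to 0.44). Other ligands and their receptors were not apart to this extent. In TECs with Adm, Calcrl was at 0.90-fold (0.65 to 1.22), Ramp2 at 0.78-fold (0.71 to 0.85) and Ramp3 at 0.68-fold (0.45 to 1.00), and in TECs with Angpt2, Tek was at 0.82-fold (0.63 to 1.06). Within capillary TECs, cells with Angpt2 had more Kdr (1.23-fold, 1.06 to 1.42), Flt1 (1.27-fold, 1.14 to 1.41) and Nrp1 (1.41-fold, 1.16 to 1.71). In NECs Aplnr stood at 339 CPM in the 52 cells with Apln and 169 CPM in the others (2.01-fold, 1.62 to 2.47). The difference between the libraries in this respect was not tested.

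Other secreted factors of the vessel wall were mixed. Of 17 on the list, 14 had enough UMIs to compare, with a median log2 ratio of -0.07. Of these, 2 were 4-fold higher in TECs, against 3.79% of all genes, and 4 were 4-fold lower, against 10.7%. The 2 higher genes were Igfbp3, which binds insulin-like growth factors (2995 against 361 CPM), and Ctgf, a matrix-associated factor (361 against 21.4 CPM). Vegfa (2.15 against 9.35 CPM) and the chemokine Cxcl12 (209 against 1855 CPM) were lower, and Angpt1 and Sema3c had 0 UMIs in TECs, against 1.44 and 4.21 CPM in NECs. Angpt1 had only 25 UMIs in NECs. The upper end of the interval of its log2 ratio was -0.75, and that of Vegfa was -1.20, so both intervals reach differences under 4-fold. For Sema3c and Cxcl12 the upper ends were -2.37 and -3.06. Most secreted genes of the list therefore did not differ as the 4 members did, and the values of Angpt2 and Angpt1 lay in opposite directions.

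Within TECs the members followed the tip markers Kcne3, Cxcr4, Dll4, Unc5b, Nid2, Lama4, Plaur and Pdgfb, none of which is a member. Taking TECs of 1900 or more UMIs, the upper 25% by CPM of this list (3349 CPM, against 1018 CPM in the others) were compared with the rest. Pgf stood at 914 CPM in the upper 25% and 226 CPM in the rest (4.05-fold, 3.68 to 4.46). Esm1 stood at 707 against 220 CPM (3.21-fold, 2.89 to 3.56), Angpt2 at 1004 against 398 CPM (2.52-fold, 2.32 to 2.74) and Apln at 999 against 410 CPM (2.44-fold, 2.24 to 2.64). These 4 passed a 2-fold difference, against 5.44% of the 7539 genes compared. The members and all marker lists were chosen with earlier results of these data known. This count and those by the other lists below are therefore a description only. Adm stood at 426 against 215 CPM (1.98-fold, 1.75 to 2.23), just under it. The list itself was higher in TECs, at 1508 against 658 CPM, with 3 of its 8 genes 4-fold higher, against 3.79% of all genes. The list level of 16 TECs lay within 10% of the lowest level in that upper group. Whether the upper group is a separate type of cell was not tested. The log2 ratio of the summed members, 1.46 in this comparison, was 0.92 with every cell thinned to 1900 UMIs.

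Adm and Pgf, more than the others, went with the hypoxia list (Vegfa, Slc2a1, Pdk1, Ldha, Pgk1, Bnip3, Egln3, Ankrd37, Ndrg1 and P4ha1). In the upper 25% by this list Adm stood at 584 CPM against 119 CPM in the rest (4.91-fold, 4.34 to 5.56) and Pgf at 752 against 202 CPM (3.72-fold, 3.37 to 4.11). These were the 2 members past 2-fold, against 0.982% of genes. Apln stood at 773 against 427 CPM (1.81-fold, 1.67 to 1.96), whereas Esm1 (1.29-fold, 1.16 to 1.44) and Angpt2 (1.14-fold, 1.05 to 1.25) differed by less. Median depth was 23937 UMIs in the upper 25% and 17110 in the rest, and the part of depth was not tested. Over the members per cell the list went from 1344 CPM in TECs with none to 2656 CPM in those with 3 or more, and the tip list from 1042 to 2228 CPM.

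The interferon list (Isg15, Ifit1, Ifit2, Ifit3, Rsad2, Irf7, Cxcl10 and Usp18) ran the other way for 3 members. In its upper 25% Adm stood at 74.2 CPM against 318 CPM in the rest (0.23-fold, 0.18 to 0.29), Pgf at 187 against 425 CPM (0.44-fold, 0.38 to 0.51) and Apln at 289 against 608 CPM (0.47-fold, 0.42 to 0.53). These 3 were 2-fold or more lower, against 2.48% of genes. Angpt2 was level at 514 against 526 CPM (0.98-fold, 0.89 to 1.07). By the mitotic list (Top2a, Mki67, Cdk1, Ccnb1, Birc5, Cenpf, Ube2c and Nusap1), 1 member was 2-fold or more lower, against 4.58% of genes. That member was Pgf, at 164 CPM in the upper 25% and 465 CPM in the rest (0.35-fold, 0.31 to 0.40). Esm1 stood at 234 against 362 CPM (0.65-fold) and Adm at 265 against 255 CPM (1.04-fold, 0.92 to 1.17), so the members were not lowered alike in TECs high for the mitotic list. Median depth was 26650 UMIs in the mitotic upper 25% and 16911 in the rest.

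**Figure D5:**
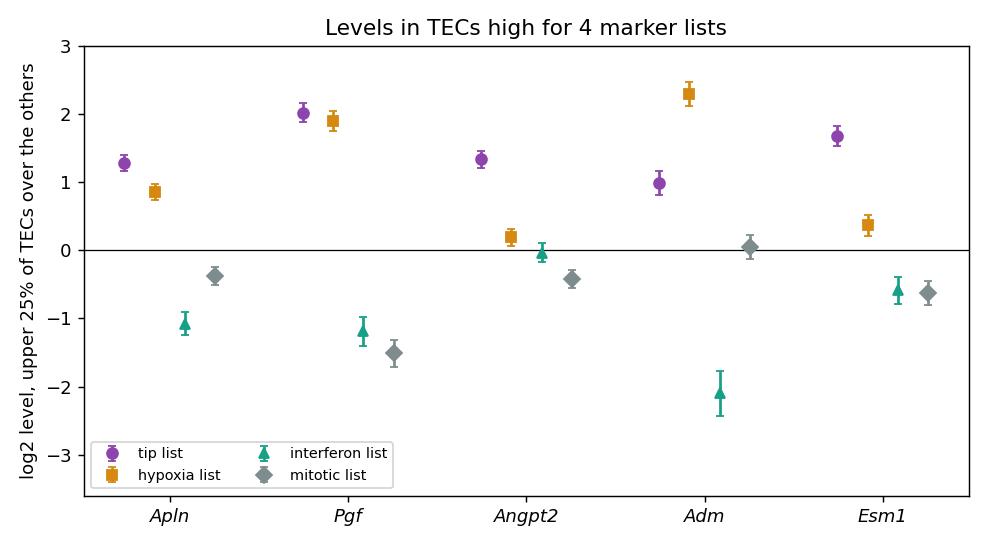
Log2 ratio of the level of each factor in the 25% of TECs highest for a marker list over the other TECs, for the tip (circles), hypoxia (squares), interferon (triangles) and mitotic (diamonds) lists, with exact conditional binomial 95% intervals. All 5 factors lie above 0 for the tip list, Adm and Pgf are highest for the hypoxia list (4.91-fold and 3.72-fold), and Angpt2 lies at 0 for the interferon list.

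In NECs, Pgf (14.1 against 3.76 CPM, 3.74-fold, 2.46 to 5.70), Apln (23.2 against 10.5 CPM, 2.20-fold, 1.65 to 2.92) and Esm1 (522 against 247 CPM, 2.11-fold, 1.99 to 2.24) were 2-fold or more higher in the upper 25% (958 cells) by the tip list, against 0.519% of the 10594 genes compared. Angpt2 (1.52-fold, 1.17 to 1.96) and Adm (1.66-fold, 1.18 to 2.30) were higher by less. The members were not higher with the hypoxia list in NECs. Apln stood at 3.13 CPM in its upper 25% and 16.7 CPM in the rest (0.19-fold, 0.10 to 0.33), and Adm at 6.26 against 12.1 CPM (0.52-fold, 0.32 to 0.80). By the interferon list Apln stood at 6.03 against 15.9 CPM (0.38-fold, 0.24 to 0.58), while Adm stood at 11.8 against 10.4 CPM (1.14-fold, 0.80 to 1.61).

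The genes most like the summed members over the 239 TECs were Thbs1 (r = 0.56), Ctgf (0.55), Prss23 (0.49), Cxcr4 (0.48), Angptl4 (0.47), Tpm1, Nes, Ankrd37, Adamts7 and Cav1 (0.45 to 0.46 for these 5). Single members had their own neighbours. The 3 nearest to Apln were Ctgf (0.59), Cav1 (0.58) and Adm, and those to Pgf were Adm, Nox4 (0.58) and Cxcr4 (0.57). Those to Angpt2 were Apln, Thbs1 (0.52) and Esm1, those to Adm were Ctgf (0.62), Pgf and Ankrd37 (0.60), and those to Esm1 were Angpt2, Prss23 (0.42) and Sat1 (0.36). Only genes found in a large enough share of cells were ranked, which in NECs left out Apln, Pgf, Angpt2 and Adm themselves. Among the ranked genes, those most like Apln in NECs were Lgals1 (0.26), Fscn1 (0.24) and Tmsb10 (0.21). For Pgf, Angpt2 and Adm the highest r with a ranked gene was 0.15. Between members in NECs, r reached 0.25 for Apln with Pgf and 0.17 for Apln with Adm. At such sparse counts these values for Pgf, Angpt2 and Adm are no finding.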

How the data were processed

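The 2 deposited tables of whole-number UMI counts per gene and cell barcode, 1 for the TEC library and 1 for the NEC library, were used as they stand. Per the labels and the study's methods, the authors made these counts with Cell Ranger against mm10 and then used Seurat. Software versions are not given in the sources used here. The 3 salivary genes were left in the totals.

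Cells were kept when they had 200 or more genes, under 10% of UMIs from mt- genes, no UMI of Ptprc, Myh11, Epcam or Cspg4, and 1 or more of Cdh5 or Pecam1; tumor cells also needed more Cdh5 plus Pecam1 than Rhox5 plus Hmga2 plus Krt8 UMIs. Levels are summed UMIs scaled to a total of 1000000 (CPM) with exact Poisson 95% intervals, ratios have exact conditional binomial intervals, and shares have Clopper-Pearson intervals taken once UMIs had been drawn at random down to 1900 in every cell, with shallower cells left out. All intervals cover counting error only. A count of 0 is given a limit of 3 counts. A gene counted as past the fold when its CPM differed 4-fold between libraries (20 or more UMIs in all) or 2-fold within a library (50 or more). Each condition had 1 library, so no p-value is given. No doublet caller was run; leaving out the 5% deepest cells stands in its place as an alternative. The intervals and thinning were tested on simulated data, with Python 3.11.15, numpy 2.4.6 and scipy 1.17.1.

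The 5 genes and all lists were chosen with earlier results of these data known. Genes named are the members, the fixed lists, and the genes with the highest Pearson r over cells of ln(1 + UMIs per 10000), 10 for the sum and 3 for each member, among genes found in 10% or more of cells. Salivary genes, the sum without Esm1, the split by Gja4 and each member's level with vessel classes by summed marker UMIs were chosen after seeing the data. Promoter letters come from RefSeq windows on GRCm38.p6.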

Additional observations from a re-analysis of the deposited data

Results flagged for a closer look

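Members were also found in cells that the comparisons between ECs do not use, at thinned shares above the interval for NECs. Adm was found in 16.1% of the cancer-like cells of the tumor library, against 1.80% of NECs. In the NEC library, Pgf was found in 9.02% and Angpt2 in 8.24% of cells with Myh11 or Cspg4 UMIs and no Cdh5 or Pecam1 UMI, against 0.574% and 3.16% of NECs. Pgf was also found in 1.91% of cells with an Epcam UMI and no Cdh5 or Pecam1 UMI.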

How the results depend on the processing

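No paired analysis was possible because each condition was 1 library and no test was run. A value is called moved where it left the 95% interval of the value reported. The log2 ratio of the summed members, TECs over NECs (2.55), kept its direction under all 12 alternatives fixed at the start, with 6 of them moved: 1.69 with no cancer-like condition, 2.42 with mitochondrial UMIs under 5%, 2.82 with no removal of marked cells, 2.48 with cells of 1900 or more UMIs only, 2.73 as a mean over cells and 2.64 under median-ratio scaling. The share with 2 or more members moved to 75.1% of TECs and 2.87% of NECs without thinning, and to 32.4% and 0.533% at 1000 UMIs. For the tip list in TECs, the log2 ratio (1.46) became 0.92 with thinned cells, 1.19 with mitochondrial UMIs under 5%, 2.57 with no cancer-like condition, 1.37 without Dll4 and Cxcr4, 1.59 with the split at the median, 1.62 for the upper 10%, 1.67 without cells with 2 or more lymphatic markers and 1.55 without the deepest cells. In NECs (1.06) it became 0.63 thinned, 0.82 as a mean over cells, 0.94 with mitochondrial UMIs under 5%, 1.41 with no removal and 0.92 without the deepest cells. Arterial over capillary NECs (-2.41) became -0.23 with classes by summed marker UMIs, -2.10 with mitochondrial UMIs under 5% and -2.14 with no removal, and arterial over venous NECs (0.54) moved under none of 13. The ratio of Esm1 alone turned negative with mitochondrial UMIs under 5% (-0.12), with no cancer-like condition (-0.78) and without cells with 2 or more lymphatic markers (-0.024).

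The last alternatives were chosen after the data had been seen. Without Esm1 the values in the order above were 5.12, 32.2% of TECs, 0.392% of NECs, 1.42 for the tip list in TECs, 0.96 for the tip list in NECs, -0.85 and, for arterial over venous NECs, -0.33 in place of 0.54. Leaving out the 10% of NECs with the most salivary UMIs moved none of 5 summed values. With classes by summed marker UMIs, Esm1 in arterial over capillary NECs went from 0.136-fold to 0.96-fold, and Pgf in arterial over capillary TECs turned from 0.065-fold to 1.85-fold (1.59 to 2.14). The cause of each change was not tested. With 1 library per condition, differences between mice and preparations cannot be told apart from the condition.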
